A study of Mus musculus with 4 samples.

Results

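The vacuolar H+-ATPase (V-ATPase) is the proton pump that acidifies lysosomes, endosomes and secretory vesicles. Its V0 sector sits in the membrane and carries protons through the a subunit and a rotating ring of small proteolipids, encoded by Atp6v0c and Atp6v0b. The V1 sector faces the cytosol and hydrolyses ATP. In neurons the proton gradient made by this pump loads neurotransmitter into synaptic vesicles. The mouse genes of the V0 sector, Atp6v0a1, Atp6v0a2, Atp6v0a4, Atp6v0b, Atp6v0c, Atp6v0d1, Atp6v0d2, Atp6v0e and Atp6v0e2, were taken by name, together with Gm15487, an intronless copy of Atp6v0c. Of these 10 genes, 9 had a row among the 26433 genes of the count table, and Atp6v0d2 was not analysed here. After the filter on low counts, 8 of the 10 remained among the 15786 genes tested, and Atp6v0a4 was left out by that filter. Tcirg1, the gene of a further a subunit isoform, has another name and is not among the V0 subunits below. It was counted with the accessory and assembly genes. Gm15487 and Atp6v0c were singled out because of their difference between the genotypes, so that their values are described without a test.

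RNA from the embryonic day 15 (E15) mouse cortex was sequenced from 2 genotypes, with 2 libraries each. The paper's methods describe the bulk RNA as coming from telencephalic tissue, while its results name the cortices. The cKI f/+ embryos carried a conditional transgene for human SERPINA3, a serine protease inhibitor, in which the CAG promoter and a loxP-flanked stop precede a 3×flag-tagged coding sequence at the Rosa26 locus, and which Nestin-Cre releases in neural progenitors and the cells they give rise to. The level of the human transgene was not analysed here. The WT embryos were littermate controls, and the labels give the strain of both genotypes as C57BL/6, whereas the founders of the line were bred with B6D2F2 mice before the cross to Nestin-Cre. The libraries are named KI2 and KI3 (cKI f/+) and WT1 and WT3 as in the table, since the column names give the genotype but not which labelled embryo each came from. Nothing in the sources states that each library came from a separate litter, so that the p-values measure the spread between these 4 samples.

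The total count per library was between 17423512 and 18119444. The summed level of 6 cortical progenitor markers was 1502 to 1591 CPM (counts per 1000000 counts of the library) in cKI f/+ and 1557 to 1573 CPM in WT, and that of 6 cortical neuron markers was 4534 to 4802 CPM in cKI f/+ and 4883 to 4969 CPM in WT, so that the labelled tissue was present in all 4 libraries. Ventral telencephalon was present as well, with a summed level of 5 markers of 216 to 228 CPM in cKI f/+ and 225 to 283 CPM in WT. The fitted values of all 5 ventral markers were lower in cKI f/+, with 0 called and 1 at an unadjusted p under 0.05 (edgeR). Those of all 6 cortical neuron markers were lower as well, with 0 called and 0 at an unadjusted p under 0.05 (edgeR). Of the 6 cortical progenitor markers 4 were higher and 2 lower. Markers of other tissues were also summed. By edgeR 0 of the choroid plexus, meningeal and erythroid markers were called, beside 0.120% of all tested genes. An unadjusted p under 0.05 was found for 2 of 3 tested choroid plexus, 3 of 4 meningeal and 3 of 6 erythroid markers (edgeR). Over all tested genes this share was 4.60%. The fitted values of all 6 erythroid markers were lower in cKI f/+. Those of the 3 tested choroid plexus markers were higher, and of the 4 meningeal markers 3 were higher and 1 lower. The summed level of 5 choroid plexus markers was 8.34 CPM and 63.6 CPM in the cKI f/+ libraries and 0.511 to 2.18 CPM in WT, that of 5 meningeal markers was 12.7 to 14.8 CPM against 5.90 to 7.46 CPM, and that of 6 erythroid markers was 366 to 490 CPM against 491 to 522 CPM. Ttr, the choroid plexus transport protein, was at 0 counts in WT1. The sex-linked genes separated the libraries in the same way, with 13223 and 11882 counts of Xist in cKI f/+ against 5 and 5 in WT, and 951 and 918 counts of Kdm5d in WT against 0 in both cKI f/+ libraries. Effects of sex and of genotype therefore cannot be told apart for any gene. As the tissue was sequenced in bulk, fewer cells of a type and less RNA per cell cannot be told apart either.

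Gm15487 (ENSMUSG00000080242) is annotated as a processed pseudogene of 465 bases at chr6:37806086-37806550 on the plus strand (GRCm38), and the GENCODE M21 and RefSeq annotations name it Atp6v0c-ps2. Its annotated transcript spans the whole coding sequence of Atp6v0c, which is also 465 bases long, and 464 of the 465 bases were identical, with no gap. The only substitution was T111C, in which Atp6v0c has the first base and the copy the last, with positions counted from 1 at the first coding base. It falls on the third position of codon 37, at chr6:37806196 in the copy and chr17:24164851 in Atp6v0c, and does not change the encoded residue. A second annotated copy, Atp6v0c-ps1 (463 bases at chr7:4412438-4412900), matched the coding sequence at 450 of 461 aligned bases, with 11 mismatches and 6 gap bases, and its counts were not analysed here. The sequences around the substitution are shown because they hold the only base of the coding sequence at which Gm15487 and Atp6v0c differ. The windows run 5′ to 3′ along coding bases 81 to 141, with capitals at the 3 positions where any of the copies differ. They lie at chr17:24164821-24164881 (minus strand, Atp6v0c exon 2), chr6:37806166-37806226 (plus strand) and chr7:4412516-4412576 (plus strand).
Atp6v0c: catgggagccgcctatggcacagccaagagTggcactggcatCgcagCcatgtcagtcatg
Gm15487: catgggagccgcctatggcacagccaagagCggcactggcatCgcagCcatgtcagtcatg
Atp6v0c-ps1: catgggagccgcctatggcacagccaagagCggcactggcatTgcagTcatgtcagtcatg
The C at position 111 of Gm15487 was thus shared with Atp6v0c-ps1, while at the other two capitals Gm15487 had the bases of Atp6v0c.

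The coding sequence of Atp6v0c is split over 3 exons of 79, 184 and 202 coding bases (chr17:24169206-24169284, chr17:24164699-24164882 and chr17:24164407-24164608, minus strand), separated by introns of 4323 and 90 bases. In the copy the exons follow each other without an intron. This is seen in the 30 bases of Gm15487 at chr6:37806150-37806179, which are the same in the spliced Atp6v0c transcript and in which the capitals mark 2 bases on either side of the place of the first exon junction.
Gm15487 junction: ccatggtcttcagCGCCatgggagccgcct
When the transcript of Gm15487 was cut into words of 31 bases, 404 of its 435 words (92.9%) also occurred in the 1183-base transcript of Atp6v0c, and the others were those that contain the substitution. These words made up 35.0% of the words of the Atp6v0c transcript, the rest of which lies in its noncoding ends or around T111C. For Atp6v0c-ps1, 161 of 433 words (37.2%) occurred in the Atp6v0c transcript. No other gene of the annotation shared 50% or more of its words with a V0 subunit, and outside the Atp6v0c group the highest share was 8.29%, for a gene with words in common with Atp6v0e2. How reads that match several places were counted is not given in the sources used here. The split of reads between Atp6v0c and Gm15487 is therefore uncertain.

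Gm15487 was near the floor of detection in WT and abundant in cKI f/+. It had 934 counts in KI2 and 959 in KI3, against 10 in WT1 and 3 in WT3. Scaled to library size these are 52.7 and 52.9 CPM in cKI f/+ and 0.568 and 0.172 CPM in WT, where 3 counts, the limit that a count of 0 allows, correspond to 0.166 to 0.172 CPM. The cKI f/+ libraries were nearly the same, and both were far above the WT libraries. The mean was 52.8 ± 0.189 CPM in cKI f/+ and 0.370 ± 0.280 CPM in WT (SD, n = 2 each). The pooled counts, 1893 against 13, give a ratio of 142 (95% exact interval from 83.0 to 268, covering counting error only), and the fitted log2 difference was 7.13. It was 8.21 without WT1 and 6.53 without WT3. This difference is what the gene was chosen for. The part of the choroid plexus, meningeal, erythroid and sex-linked differences in it was not tested.

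**Figure D1:**
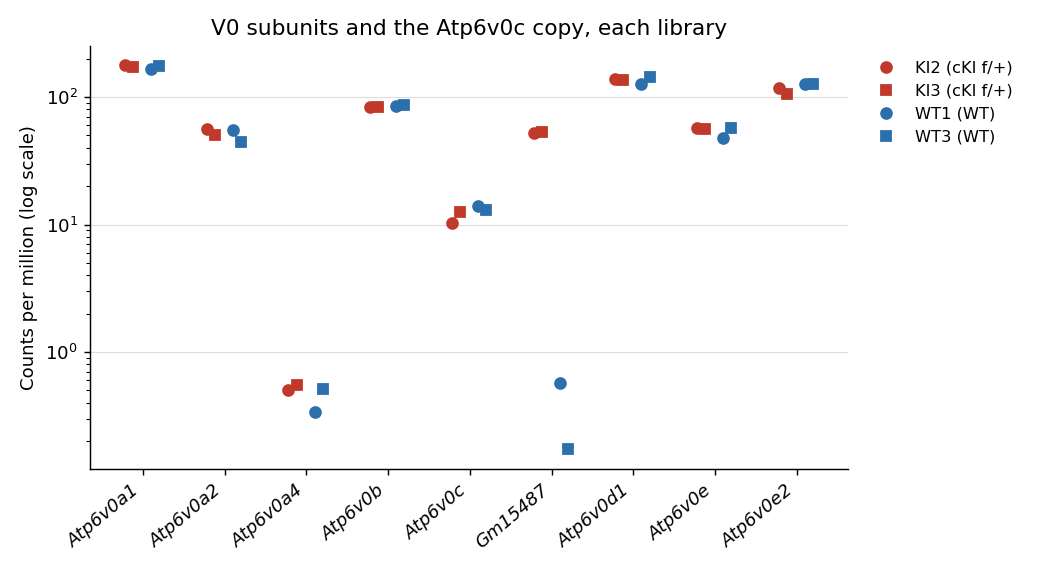
Level in CPM (vertical axis, log scale) of the 8 V0 subunits with a row and of Gm15487 in each of the 4 libraries (red, cKI f/+; blue, WT). The points of each subunit lie close together, while Gm15487 is at 52.7 and 52.9 CPM in cKI f/+ and at 0.568 and 0.172 CPM in WT.

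Atp6v0c (ENSMUSG00000024121, chr17:24163866-24169702, minus strand) encodes the c proteolipid, of which the membrane ring holds several. Its row held 182 (KI2) and 226 (KI3) counts in cKI f/+ and 248 (WT1) and 226 (WT3) counts in WT. In CPM these are 10.3 and 12.5 in cKI f/+ and 14.1 and 13.0 in WT. Both cKI f/+ values were below both WT values, where the groups did not overlap for 33.9% of all tested genes. The nearest pair, KI3 and WT3, was 0.5 CPM apart. The mean was 11.4 ± 1.56 CPM in cKI f/+ and 13.5 ± 0.783 CPM in WT (SD, n = 2 each), which is a fitted log2 difference of -0.25. Leaving out each library in turn gave values from -0.39 to -0.13.

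As reads of these rows may be exchanged, their sum was also taken. It was 1116 and 1185 counts in cKI f/+ and 258 and 229 counts in WT. In CPM this is 64.2 ± 1.75 in cKI f/+ and 13.9 ± 1.06 in WT (SD, n = 2 each), a fitted log2 difference of 2.21. The sum was thus higher in cKI f/+, while the Atp6v0c row alone was slightly lower, which was not tested. Gm15487 took 83.7% of the sum in KI2 (95% exact Clopper-Pearson interval 81.4% to 85.8%) and 80.9% in KI3 (78.6% to 83.1%). In WT it took 3.88% in WT1 (1.87% to 7.01%) and 1.31% in WT3 (0.271% to 3.78%). The intervals cover counting error only and not the spread between embryos.

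**Figure D2:**
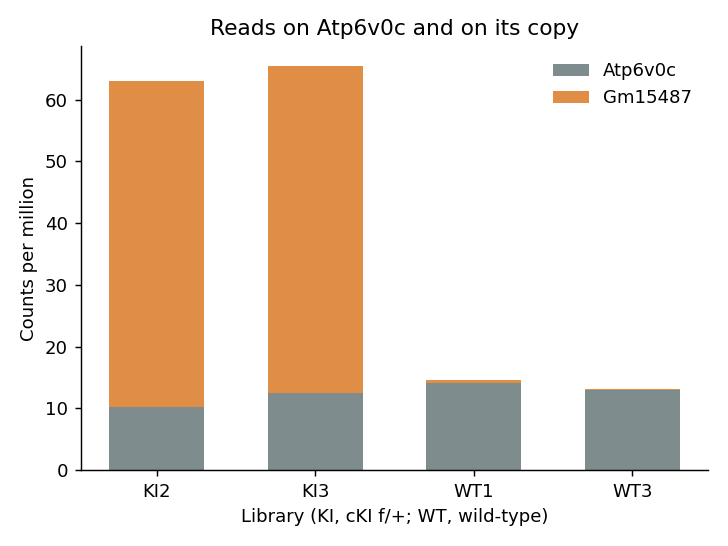
CPM of Atp6v0c (grey) and, stacked on it, of Gm15487 (orange) in each library. The sum is 62.9 and 65.4 CPM in the cKI f/+ libraries, most of it from Gm15487, and 14.6 and 13.1 CPM in the WT libraries, nearly all of it from Atp6v0c.

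The other V0 subunits were chosen by their family name and were tested over all genes with edgeR's quasi-likelihood test and Benjamini-Hochberg adjustment. None of the 6 tested subunits passed an adjusted p of 0.05, none had an unadjusted p under 0.05 (4.60% of all tested genes had), and DESeq2 also called 0, where 0.120% of all tested genes (19 of 15786) were called. The groups did not overlap for 2 of the 6, while over all tested genes this held for 33.9%. Their fitted log2 fold changes were between -0.17 and 0.12 with a median of 0.03, beside a median of 0.0043 over all tested genes. The 95% intervals of all 6 lay between -0.36 and 0.38. With 2 libraries against 2 an exact two-sided permutation test of a single gene cannot go below 0.333, and the p-values of the fit rest on a spread shared between genes.

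The a subunit holds the channel through which protons enter and leave the ring, and its isoforms direct the pump to different membranes. Atp6v0a1 (chr11:101009452-101063719, plus strand), the isoform known from neurons and synaptic vesicles, was at 178 and 172 CPM in cKI f/+ and 167 and 175 CPM in WT. The groups overlapped, with a log2 fold change of 0.04 (SE 0.077, 95% interval -0.13 to 0.21, edgeR adjusted p = 0.994). Atp6v0a2 (chr5:124628576-124724455, plus strand), known from the Golgi and endosomes, was at 56.0 and 50.8 CPM in cKI f/+ and 55.3 and 44.1 CPM in WT. The lowest and the second highest values were both WT, and the log2 fold change was 0.11 (SE 0.12, 95% interval -0.16 to 0.38, edgeR adjusted p = 0.987). Atp6v0a4 (chr6:38048483-38124586, minus strand), known from the kidney and inner ear, had 9 and 10 counts in cKI f/+ and 6 and 9 counts in WT. It lies 242 kb from Gm15487 on the same chromosome. Its difference was not tested, as the filter on low counts left it out.

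Atp6v0b (chr4:117884326-117887333, minus strand) encodes the other proteolipid of the ring and is thus the partner of Atp6v0c. It was at 83.1 and 84.3 CPM in cKI f/+ and 85.0 and 86.8 CPM in WT. The values were ordered by genotype but close, with a log2 fold change of -0.03 (SE 0.076, 95% interval -0.20 to 0.14, edgeR adjusted p = 0.994). Atp6v0d1 (chr8:105524465-105566047, minus strand), the widely expressed subunit that joins the ring to the central stalk of V1, was at 138 and 136 CPM in cKI f/+ and 127 and 143 CPM in WT. Both cKI f/+ values lay between the WT values, and the log2 fold change was 0.03 (SE 0.084, 95% interval -0.16 to 0.22, edgeR adjusted p = 0.994).

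The e subunits are small hydrophobic proteins of the V0 sector. Atp6v0e (chr17:26676396-26699644, plus strand), the widely expressed form, was at 56.8 and 55.9 CPM in cKI f/+ and 47.7 and 56.8 CPM in WT. Only WT1 stood apart, and the log2 fold change was 0.12 (SE 0.10, 95% interval -0.12 to 0.35, edgeR adjusted p = 0.978). Atp6v0e2 (chr6:48537615-48541801, plus strand), the form known from the brain, was at 118 and 106 CPM in cKI f/+ and 126 and 127 CPM in WT. Both cKI f/+ libraries were below both WT libraries, and the log2 fold change of -0.17 (SE 0.082, 95% interval -0.36 to 0.011) had an unadjusted p of 0.063 and an edgeR adjusted p of 0.969. This was the largest difference in size among the 6 tested subunits.

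**Figure D3:**
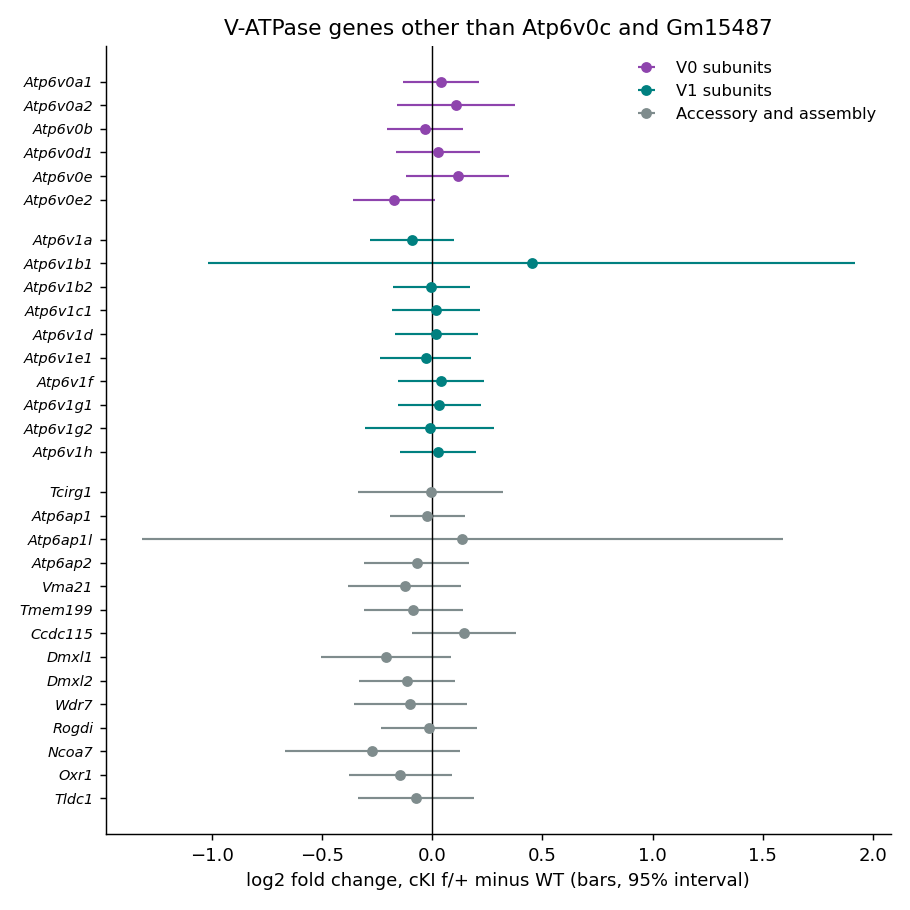
Fitted log2 fold change (horizontal axis, cKI f/+ minus WT) with its 95% interval for the 6 tested V0 subunits other than Atp6v0c, 10 V1 subunits and 14 accessory and assembly genes. Tcirg1 is counted with the accessory genes. Every interval includes 0, and the widest belong to Atp6v1b1 and Atp6ap1l, which had few counts.

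Levels of different genes were compared only per length, as CPM per kilobase of the longest coding transcript (465 bases for Gm15487). On this scale Atp6v0b (83.1 to 86.8 over the 4 libraries) and Atp6v0d1 (77.9 to 87.8) were highest and overlapped. They were followed by Atp6v0e2 (59.3 to 70.9), Atp6v0a1 (41.6 to 44.4) and Atp6v0e (17.0 to 20.2), whose ranges did not overlap. Atp6v0c (8.67 to 11.9) and Atp6v0a2 (8.26 to 10.5) overlapped each other, and Atp6v0a4 was lowest (0.103 to 0.167). The place of Atp6v0c in this order is uncertain, because its reads may be shared with its copy. Among isoforms, Atp6v0a1 was 4.02 to 5.28 times as abundant per length as Atp6v0a2, and Atp6v0e2 was 2.98 to 4.17 times as abundant as Atp6v0e. The first ratio overlapped between the genotypes, while the second was 3.25 and 2.98 in cKI f/+ and 4.17 and 3.51 in WT.

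Between the ring proteolipids the level per length of Atp6v0b was 7.15 to 9.58 times that of Atp6v0c in the 4 libraries. Ratios to Atp6v0c are uncertain, as 35.0% of the words of its transcript also occur in Gm15487 and the treatment of such reads is not given. Gm15487 was at 113 and 114 CPM per kilobase in cKI f/+, above every V0 subunit in the same libraries, and at 1.22 and 0.370 in WT, above only Atp6v0a4. Its level was 13.1 and 10.8 times that of Atp6v0c in cKI f/+ and 0.103 and 0.0338 times in WT. With the union of all annotated exons as the length, Atp6v0e2 (44.6 to 53.3) was above Atp6v0b (40.5 to 42.3) and Atp6v0c (3.03 to 4.16) was below Atp6v0a2 (6.56 to 8.33), so that these orders depend on the length used. The ratios moved as well: with the exon union Gm15487 was 37.3 and 30.9 times Atp6v0c in cKI f/+ and 0.293 and 0.0966 times in WT, and Atp6v0b was 9.97 to 13.4 times Atp6v0c. The rank of Gm15487 in cKI f/+ could not fall with the exon union, so that this is no separate result. Its length is 465 bases under both measures, while the exon union of a gene is never shorter than its longest transcript.

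**Figure D4:**
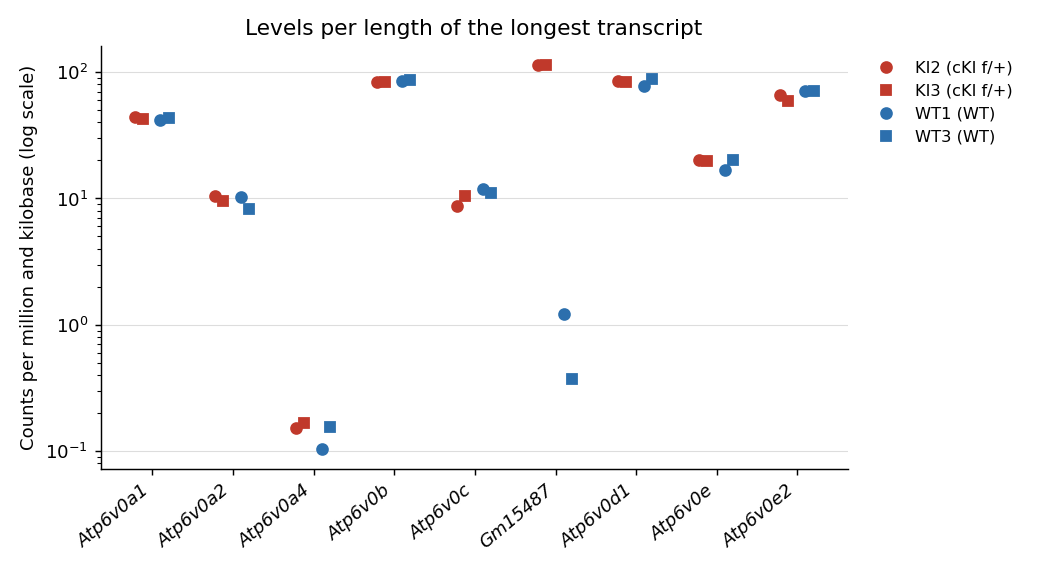
Level in CPM per kilobase of the longest coding transcript (vertical axis, log scale) in each library for 8 V0 subunits and Gm15487 (red, cKI f/+; blue, WT). Gm15487 is the highest in cKI f/+, at 113 and 114, while Atp6v0c lies between 8.67 and 11.9 in all libraries.

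The remaining genes of the pump were compared in the same fit. Of 13 V1 subunits 12 had a row and 10 were tested. By edgeR 0 were called, beside 0.120% of all tested genes, and DESeq2 also called 0. An unadjusted p under 0.05 was found for 0 of the 10, beside 4.60% of all tested genes (edgeR). The median log2 fold change of the 10 was 0.02. The groups overlapped for all 10, while over all tested genes 33.9% did not overlap. The highest value was that of Atp6v1b1, an isoform known from kidney and inner ear, with 12 and 9 counts in cKI f/+ and 3 and 12 in WT and a log2 fold change of 0.45 (SE 0.65, adjusted p = 0.993). The lowest was that of Atp6v1a, the catalytic subunit, at -0.09 (SE 0.085, adjusted p = 0.979), with 1579 and 1489 counts in cKI f/+ and 1551 and 1659 in WT.

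Among 16 accessory and assembly genes 14 were tested and edgeR called 0, beside 0.120% of all tested genes, and DESeq2 also called 0. An unadjusted p under 0.05 was found for 0 of the 14, beside 4.60% of all tested genes (edgeR). The median log2 fold change was -0.08, 12 of the 14 fitted values were below 0, and the groups did not overlap for 4, or 28.6%, beside 33.9% over all tested genes. The lowest value was that of Ncoa7, which binds the pump through its TLDc domain, at -0.27 (SE 0.18, adjusted p = 0.969), with 176 and 177 counts in cKI f/+ and 180 and 238 in WT. The highest was that of Ccdc115, an assembly factor of V0, at 0.14 (SE 0.11, adjusted p = 0.969), with 774 and 924 counts in cKI f/+ and 727 and 779 in WT. Tcirg1, counted in this list, had 245 and 215 counts in cKI f/+ and 234 and 220 in WT. Its log2 fold change was -0.01 (SE 0.15, edgeR adjusted p = 0.997).

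Of 20 genes of lysosomes and organelle acidification all were tested and 0 were called by edgeR or by DESeq2. Over all tested genes edgeR called 0.120%. An unadjusted p under 0.05 was found for 1 of the 20, beside 4.60% of all tested genes (edgeR). The median log2 fold change was 0.05, and the groups did not overlap for 6 of 20, beside 33.9% over all tested genes. The gene with the unadjusted p was Slc9a7, a Na+/H+ exchanger of the trans-Golgi network, with 20 and 25 counts in cKI f/+ and 3 and 12 in WT and the highest log2 fold change of the list, 1.54 (SE 0.56, adjusted p = 0.969). The lowest was that of Slc9a9, an endosomal exchanger, at -0.33 (SE 0.41, adjusted p = 0.992), with 14 and 29 counts in cKI f/+ and 30 and 23 in WT.

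Around Gm15487 only 2 tested genes lay within 250000 bases. By edgeR 0 of them were called and 0 had an unadjusted p under 0.05, beside 0.120% and 4.60% of all tested genes. Ybx1-ps2, another processed pseudogene, 119 kb before Gm15487, had 24 and 34 counts in cKI f/+ and 31 and 23 in WT, a log2 fold change of 0.07 (SE 0.35, adjusted p = 0.994). Trim24, a transcriptional cofactor gene 64.3 kb after it, had 1175 and 1205 counts in cKI f/+ and 1243 and 1105 in WT, a log2 fold change of -0.01 (SE 0.088, adjusted p = 0.997).

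Around Atp6v0c 9 genes were tested within 250000 bases, of which 0 were called by edgeR, beside 0.120% of all tested genes. An unadjusted p under 0.05 was found for 2 of 9, beside 4.60% of all tested genes (726 of 15786). The median log2 fold change of the 9 was -0.09. Amdhd2, an enzyme of amino sugar metabolism whose gene lies 0.1 kb from Atp6v0c, had 386 and 403 counts in cKI f/+ and 347 and 421 in WT, a log2 fold change of 0.01 (SE 0.13, adjusted p = 0.997). Tbc1d24, a gene of synaptic vesicle traffic 5.73 kb away on the other side, had 1541 and 1432 counts in cKI f/+ and 1669 and 1651 in WT, a log2 fold change of -0.19 (SE 0.083, adjusted p = 0.969). The other with an unadjusted p under 0.05 was Rnps1, an RNA splicing factor gene 245 kb away, which is named after its values were seen. It had 3749 and 4008 counts in cKI f/+ and 5345 and 5380 in WT, a log2 fold change of -0.50 (SE 0.074, adjusted p = 0.061).

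**Figure D5:**
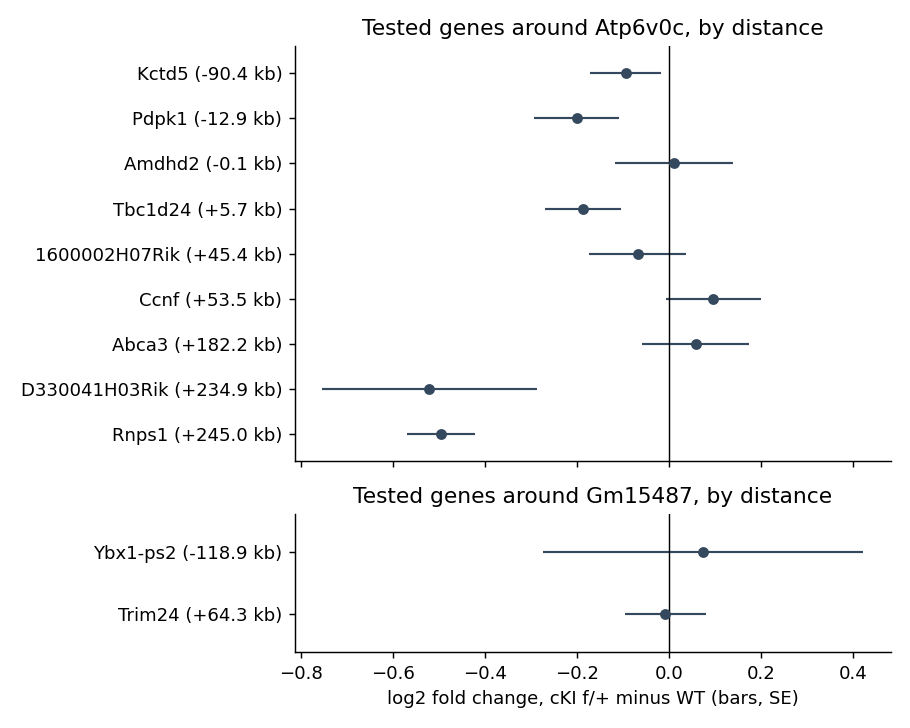
Fitted log2 fold change (horizontal axis, cKI f/+ minus WT; bars, SE) of the tested genes within 250000 bases of Atp6v0c (upper panel, 9 genes) and of Gm15487 (lower panel, 2 genes), ordered by distance. Ybx1-ps2 and Trim24 lie near 0, and Rnps1 and D330041H03Rik, at -0.50 and -0.52, are lowest around Atp6v0c.

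The tested genes whose pattern over the 4 libraries was most like that of Gm15487 were found by the Euclidean distance of their centred log2 CPM. The nearest was Gm9825 (chr6:7982541-7983383), also a processed pseudogene on chromosome 6, at a distance of 0.717, with 965 and 977 counts in cKI f/+ and 10 and 7 in WT. The second was the processed pseudogene Gm13443 (chr2:35340409-35340963), at a distance of 2.45, with 101 and 108 counts in cKI f/+ and 3 and 2 in WT. The next were Ttr (116 and 956 against 0 and 4), Tmem181c-ps, an unprocessed pseudogene (109 and 109 against 13 and 5), and Ccl28, a chemokine gene (54 and 24 against 0 and 2). The share of pseudogenes among all tested genes was not analysed here, so that nothing is read from these annotations. In Gm9825, Gm13443 and Tmem181c-ps the cKI f/+ libraries differed little from each other, in contrast to Ttr and Ccl28. As the 5 were picked for their likeness to Gm15487, their likeness is no separate result.

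The promoter windows of RefSeq (GRCm38.p6, from 250 bases before to 50 bases after the start) covered 7 of the 10 genes with 9 windows. They were searched for the E-box CACGTG, the core of the lysosomal gene element bound by TFEB and related factors, and for TCANGTGA, which includes its extended form TCACGTGA and so overlaps it, on both strands. CACGTG occurred in 3 of the 9 windows (33.3%), those of Atp6v0b, Atp6v0d1 and Atp6v0e, and in 7.15% of 32851 windows of all genes. TCANGTGA occurred in 3 of the 9 windows, those of Atp6v0c, Atp6v0d1 and Atp6v0e, and in 4.18% of all windows. A match is a run of letters and says nothing of binding. The matches are shown with 15 bases on either side, on the strand of each gene and with the match in capitals, as a sequence feature that several subunits had in common. They lie at chr17:24169445-24169482, chr4:117887345-117887380, chr8:105566046-105566083 and chr17:26676383-26676420, in the order shown, and Atp6v0b had a second CACGTG 18 bases after the first.
Atp6v0c: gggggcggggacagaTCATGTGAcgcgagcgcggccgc
Atp6v0b: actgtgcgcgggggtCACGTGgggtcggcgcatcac
Atp6v0d1: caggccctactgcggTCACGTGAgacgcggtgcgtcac
Atp6v0e: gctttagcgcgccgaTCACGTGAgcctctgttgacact
Of the 3 windows of Atp6v0c, each at another annotated start, only 1 held the match. In that window of Atp6v0c, in Atp6v0b and in Atp6v0d1 the match began 17, 36 and 4 bases before the start, and in Atp6v0e it began 2 bases after the first transcribed base. The subunits with a match, apart from Atp6v0c, had log2 fold changes from -0.03 to 0.12, and those of Atp6v0a1 and Atp6v0e2, without a match in their windows, were 0.04 and -0.17.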

How the data were processed

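E15 cortex libraries (2 cKI f/+, 2 WT) were sequenced on an Illumina HiSeq instrument. The authors deposited 1 table of raw counts per gene. The submitters' processing notes name Bowtie2 2.2.3, TopHat2 2.0.12, HTSeq 0.6.0 and the build mm9, without roles, whereas the positions deposited in the table are those of GRCm38: 24486 of 26378 gene IDs shared with GENCODE M21 have the same start and end. The strand setting and the treatment of reads with several matches are not given in the sources used here, so that overlapping, antisense and near-identical genes may share reads. Per the labels the profiles were in triplicate, and 2 libraries per genotype were analysed here. Replicates differed beyond sampling noise (chi-square per degree of freedom 5.63 in cKI f/+ and 7.49 in WT).

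Genes were filtered with filterByExpr and tested as cKI f/+ minus WT with edgeR 4.0.16 (TMM, glmQLFit and glmQLFTest, Benjamini-Hochberg over all 15786 tested genes, threshold 0.05). DESeq2 1.42.0, the edgeR likelihood ratio test, other scalings and filters and each library left out were alternatives. The script was tested on simulated data. Lengths and transcripts came from GENCODE M21, promoters from RefSeq. Genes named are all members, Tcirg1, and every called and the highest and lowest tested gene of each list. Also named are the genes next to Atp6v0c and Gm15487, and the 5 most like Gm15487. The members and gene lists were chosen with earlier results of these data known.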

Additional observations from a re-analysis of the deposited data

How the results depend on the processing

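The 6 tested V0 subunits, the V1 subunits, the accessory genes and the lysosome genes had 0 calls under every scaling, filter, test and left-out library tried. Over all genes, 19 were called, against 54 with the edgeR likelihood ratio test, 24 with DESeq2, 16 with a minimum of 1 count over all libraries, 6 with at least 10 counts in every library (a filter that removes Gm15487 itself and genes at 0 in 1 genotype), 11 without chromosomes X and Y, and 46 to 71 with 1 library left out, where the lone sample is assumed to vary like the others. The log2 difference of Gm15487 was 6.53 without WT3 to 8.21 without WT1, and 6.96 and 6.35 with prior counts of 1 and 5. Its size thus rests on a few WT reads, and its direction is what the gene was chosen for. The log2 difference of Atp6v0c turned to 2.21 when the reads of its copy were added. With 1 library left out, the log2 fold changes of Atp6v0a1 ranged from -0.0006 to 0.0761, of Atp6v0a2 from -0.0424 to 0.281, of Atp6v0d1 from -0.0568 to 0.119 and of Atp6v0e from -0.006 to 0.249; these 4 changed sign without a call. The cause was not tested. Other scalings reversed none of the values for the V0 subunits. No paired analysis was possible because the sources do not say which cKI f/+ and WT libraries came from the same litter. Depth limits Atp6v0a4 and Gm15487 in WT.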
